A study of Mus musculus with 2 samples.

Results

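Immediate-early response genes are transcribed within minutes of a stimulus, before new protein is made, and most code for transcription factors. The 10 members described here were chosen by gene symbol from a fixed list, Fos, Fosb, Jun, Junb, Egr1, Atf3, Nr4a1, Nr4a2, Nr4a3 and Ier2, and all 10 were found among the 32285 features of the count matrices. The data were 2 libraries of 10x 3' single-cell RNA sequencing from subcutaneous MC38 tumors, a mouse colon carcinoma line grown in C57BL/6 mice. The untreated library came from mice given the vehicle (saline with 10% DMSO) and the MSA-2 library from mice given MSA-2, a small-molecule agonist of STING, the adaptor of the cytosolic DNA-sensing pathway. Injections into the tumor were given 3 times at intervals of 3 days, after which the tumors of 3 mice were pooled into 1 library per condition, minced and dissociated to a cell suspension.

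Proteins of the Fos and Jun families pair through leucine zippers to form AP-1, which binds DNA as a dimer. Egr1 is a zinc-finger factor, Atf3 a basic leucine-zipper factor of the ATF/CREB group, the Nr4a genes code for orphan nuclear receptors, and Ier2 for a short-lived nuclear protein. Growth factors, cytokines, antigen-receptor signals and stress all raise these transcripts, largely through MAP kinases, SRF and CREB, and so does the handling of tissue during dissociation, which cannot be told apart here from what was present in the tumor because each condition was dissociated as 1 pool.

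The untreated library held 14386 barcodes and 198135335 unique molecular identifiers (UMIs), and the MSA-2 library 14617 barcodes and 204387165 UMIs. After filters on genes and mitochondrial share and removal of called doublets, 13334 and 13393 cells were kept, with medians of 8298.5 and 9271 UMIs, and 39 of their barcode sequences occurred in both libraries. Cells were assigned to classes by a score over fixed marker genes, and 7 classes with at least 50 cells in each library were compared: tumor-like (6377 untreated and 6780 MSA-2 cells), fibroblast-like (261 and 723), endothelial-like (59 and 74), macrophage-like (3489 and 1000), Ly6c2 monocyte-like (481 and 873), T cell-like (1047 and 118) and NK cell-like (235 and 104). The suffix is dropped from here on, and Ly6c2 monocytes are called monocytes. The sample labels give the cell type as tumor cells, whereas 47.8% and 50.6% of the kept cells scored as such. The paper describes its 14386 and 14617 cells, the same numbers as these barcodes, as immune cells left by a quality filter. Levels are in CPM, the UMIs of a gene scaled to a class total of 1000000. In the tumor class all 10 tumor markers had UMIs, led by Gng11 at 1307 CPM without and 2086 CPM with MSA-2. Krt18, however, was at 0.00693 and 0.0125 CPM and Krt8 at 0.159 and 0.263 CPM. Some of these markers were shared with other classes. Gng11 was at 1449 and 1349 CPM in endothelial cells. Cald1 was at 670 and 595 CPM in fibroblasts, against 653 and 569 CPM in the tumor class. None of the 10 tumor markers was among the 10 genes that led the tumor class by fold. Those genes were Shisal2b, Asns, Cst6, Klra4, Cox6a2, Rhox5, Psph, Ankrd1, Phgdh and Psat1. Genes leading the monocyte class included Ifnb1, Ifna2 and Tnf, and those leading the fibroblast class included Ptx3, Mmp3 and Saa3.

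Each condition was 1 library, so no difference between conditions has a replicate check, and no test between them was made. The 95% intervals in parentheses, exact for Poisson counts, shares and count ratios, cover counting error only. Since the assay counts about 1 tag per molecule near the 3' end, levels of different genes are compared as UMIs, without division by length.

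**Figure D1:**
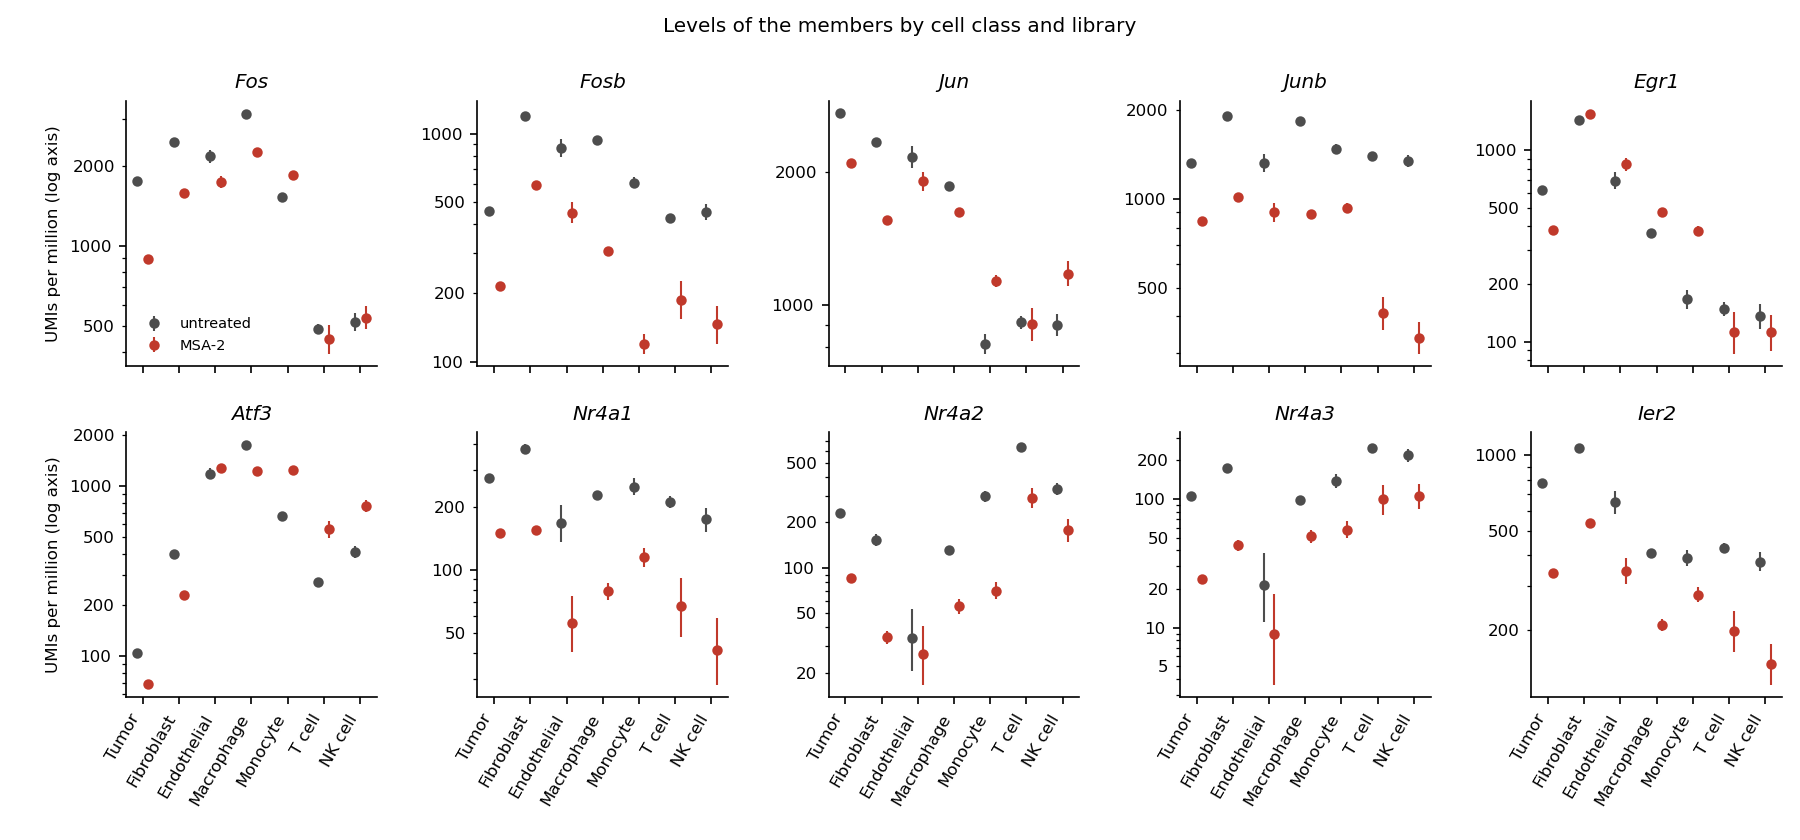
Level of each of the 10 members (CPM, log axis with its own range in each panel) in 7 cell classes, with untreated in grey and MSA-2 in red. Bars are exact 95% Poisson intervals. Fosb, Junb, Nr4a1 and Ier2 lay lower in MSA-2 in each class, whereas Atf3 lay higher in MSA-2 in monocytes (666 and 1249.9 CPM), T cells and NK cells.

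Across members and classes, MSA-2 cells mostly held fewer immediate-early UMIs than untreated cells. Of 70 ratios of MSA-2 over untreated, 58 were below 0 on the log2 scale and 12 above, and the interval lay wholly below 0 for 53 and wholly above for 10. Fosb, Junb, Nr4a1, Nr4a2, Nr4a3 and Ier2 were below 0 in all 7 classes, under the main scaling and under each other scaling, gate and filter tried, although the endothelial intervals of Nr4a2 and Nr4a3 included 0. Fos, Jun, Egr1 and Atf3 differed in sign between classes. Summed over the 10 members, tumor cells held 8372 and 5094 CPM (log2 ratio -0.72) in untreated and MSA-2, fibroblasts 11535 and 7293 CPM (log2 ratio -0.66), endothelial cells 9281 and 7568 CPM (log2 ratio -0.29) and macrophages 10776 and 7177 CPM (log2 ratio -0.59). In monocytes the sum was 6343 and 6194 CPM (log2 ratio -0.03), in T cells 5174 and 3274 CPM (log2 ratio -0.66) and in NK cells 4877 and 3546 CPM (log2 ratio -0.46). Monocytes thus stood apart, with nearly equal sums on class totals made up of members that lay on opposite sides of 0. The ratio of their sums, -0.03, lay above the monocyte median of all features, -0.26, so its sign rests on the scaling.

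Counts of members past a 2-fold difference were read against all features with at least 20 UMIs over both libraries in the class. In tumor cells 4 of 10 members were at least 2-fold lower (background 6.10% of all features) and 0 at least 2-fold higher (background 11.0%), over 18136 features. In fibroblasts 5 of 10 members were at least 2-fold lower (background 9.25% of all features) and 0 at least 2-fold higher (background 7.95%), over 12514 features. The 5 became 3 under TMM scaling (trimmed means in place of class totals) or with equal weight per cell. Among endothelial cells, where Nr4a3 had too few UMIs, 1 of 9 members were at least 2-fold lower (background 7.89% of all features) and 0 at least 2-fold higher (background 6.23%), over 7159 features, a share of members near the background that rose to 3 of the members with doublets kept. In macrophages 4 of 10 members were at least 2-fold lower (background 7.43% of all features) and 0 at least 2-fold higher (background 7.62%), over 13162 features. In monocytes 4 of 10 members were at least 2-fold lower (background 11.8% of all features) and 1 at least 2-fold higher (background 11.4%), over 9822 features, the latter a share near the background. Under TMM scaling the monocyte counts became 2 lower and 2 higher. Counts under TMM scaling are not read against these backgrounds, as 3 background shares moved and 11 stayed under it. In T cells 6 of 10 members were at least 2-fold lower (background 11.1% of all features) and 1 at least 2-fold higher (background 5.82%), over 10034 features. In NK cells 5 of 10 members were at least 2-fold lower (background 8.36% of all features) and 0 at least 2-fold higher (background 5.25%), over 7891 features. The median log2 ratio of the members was -0.92 in tumor cells, -0.96 in fibroblasts, -0.36 in endothelial cells, -0.94 in macrophages, -0.58 in monocytes, -1.12 in T cells and -0.99 in NK cells. The median of all features was 0.06 in tumor cells, -0.20 in fibroblasts, -0.16 in endothelial cells, -0.13 in macrophages, -0.26 in monocytes, -0.14 in T cells and -0.13 in NK cells. TMM scaling moved the median of all features by over 0.1 in fibroblasts, endothelial cells and monocytes, where the shift of the class-total ratios was -0.26, -0.18 and -0.28. For these 3 classes each member is therefore also given relative to the median of all features, and the members' median on that scale was -0.76, -0.20 and -0.32.

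**Figure D2:**
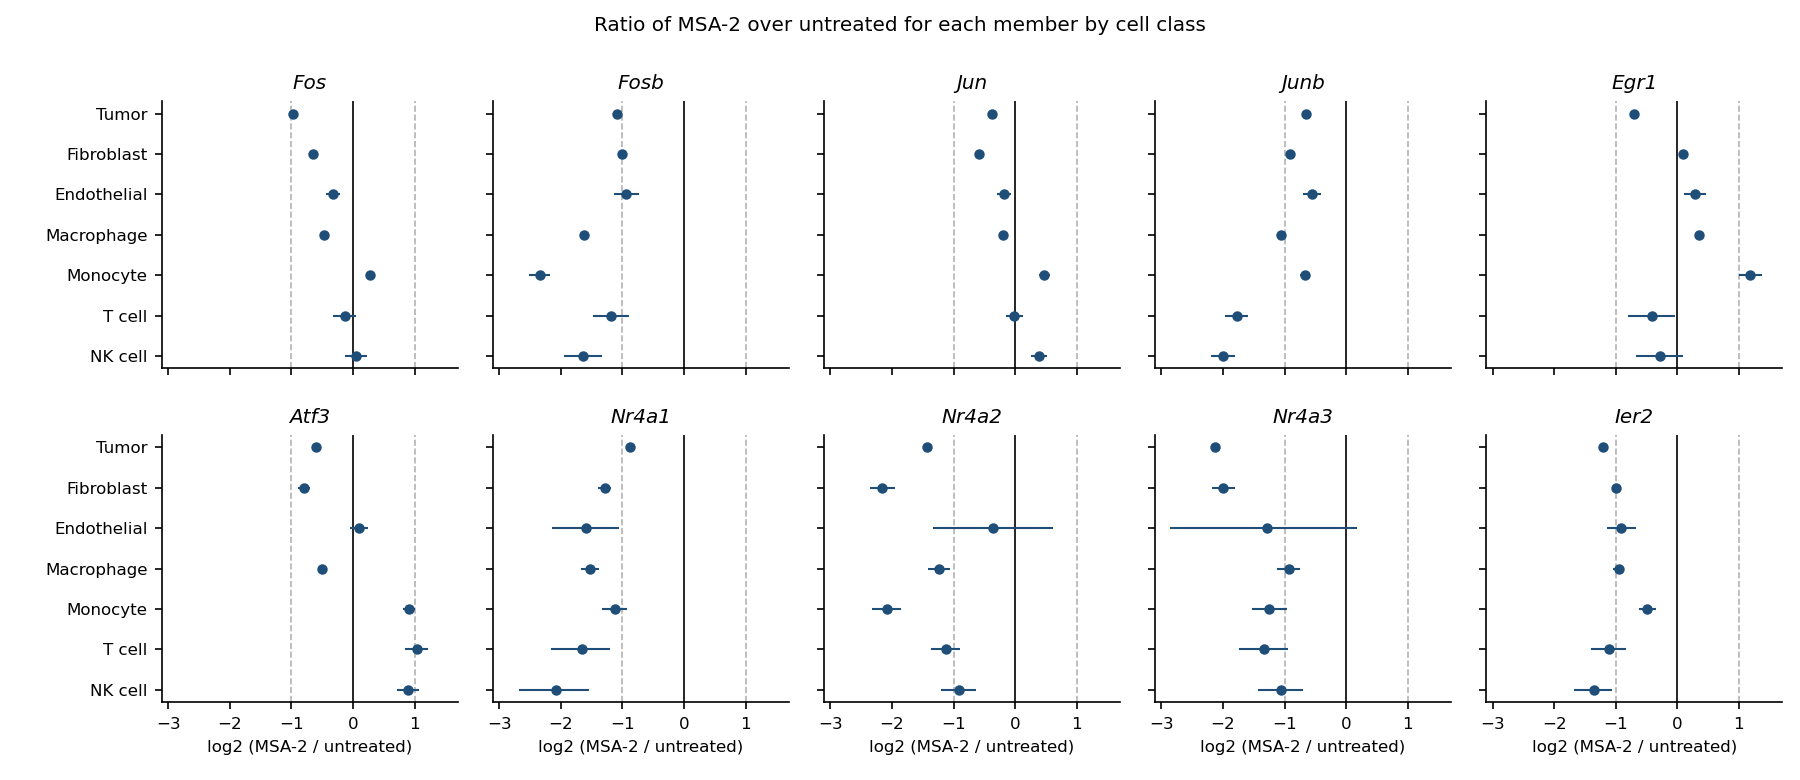
Log2 ratio of MSA-2 over untreated for each member (panels) in each cell class, with exact 95% intervals as bars, a solid line at 0 and dashed lines at 2-fold. Egr1 ranged from -0.70 in tumor cells to 1.19 in monocytes, and Fosb from -2.34 in monocytes to -0.94 in endothelial cells.

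Fos, a founding subunit of AP-1, was highest in macrophages in both libraries and lower in MSA-2 in tumor cells, fibroblasts, endothelial cells and macrophages. Macrophages held 3151 CPM (3126 to 3175) in untreated and 2263 CPM (2223 to 2304) in MSA-2, a log2 ratio of -0.48 (-0.51 to -0.45). Tumor cells held 1758 CPM (1751 to 1765) in untreated and 896 CPM (891 to 900.4) in MSA-2, a log2 ratio of -0.97 (-0.98 to -0.96). The tumor cell difference was thus just short of 2-fold, and past it under TMM scaling. In fibroblasts Fos was at 2466 CPM (2412 to 2521) in untreated and 1582 CPM (1558 to 1607) in MSA-2, a log2 ratio of -0.64 (-0.68 to -0.60). In endothelial cells it was at 2179 CPM (2058 to 2305) in untreated and 1749 CPM (1658 to 1844) in MSA-2, a log2 ratio of -0.32 (-0.43 to -0.20). Monocytes went the other way, with 1532 CPM (1476 to 1589.8) in untreated and 1860.0 CPM (1813 to 1908) in MSA-2, a log2 ratio of 0.28 (0.21 to 0.35). T cells, the class with the lowest level, held 489 CPM (467 to 512) in untreated and 447 CPM (394 to 505) in MSA-2, a log2 ratio of -0.13 (-0.32 to 0.06), and that ratio turned to a value above 0 with equal weight per cell. NK cells held 520.4 CPM (482 to 561) in untreated and 539 CPM (488 to 594) in MSA-2, a log2 ratio of 0.05 (-0.13 to 0.23). The ratio intervals of both lymphoid classes included 0, so a difference was not detectable over each whole class at this depth. In untreated the order ran from macrophages through fibroblasts, endothelial cells, tumor cells, monocytes and NK cells to T cells, and the intervals of NK cells and T cells overlapped. In MSA-2 monocytes took the place after macrophages, overlapping endothelial cells, followed by fibroblasts and tumor cells, with NK cells and T cells again last and overlapping. Set against all features, Fos was at -0.44 in fibroblasts, -0.16 in endothelial cells and 0.54 in monocytes.

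The promoters of the members are shown because 6 of the 10 members had ratios below 0 in all 7 classes, although 2 of them, Nr4a2 and Nr4a3, had endothelial intervals that included 0. Of the 10 members 8 were matched in the RefSeq promoter table, on build GRCm38.p6, and the windows ran from 250 to 11 bases before the start of transcription. Searched on both strands, a window of Fos at chr12:85473640-85473879 on the plus strand held the CRE half-site TGACG 2 times, at 129 and 66 bases before the start, and the TATA box TATAAA 1 time, at 33 bases. Capitals in each sequence mark matches to the motifs named here, on either strand. GENCODE places no gene in this window. TGACG occurred in 6 of the 8 member promoters and in 16.9% of 32851 windows of this length, and TATAAA in 2 of 8 and 12.1%. The full CRE TGACGTCA, which holds the half-site, occurred in 0 of 8 (1.44% of all windows), as did the AP-1 site TGANTCA (6.58%), the EGR site GCGTGGGCG (0.511%), the Nr4a response element AAAGGTCA (1.28%) and the CArG box bound by SRF (1.44%). A match is a run of letters and not a shown binding site. An absence says only that the letters were not in these windows. Sequence further than 250 bases before the start was not searched, and Egr1 and Ier2 had no window. G and C made up 58.8% of the Fos window, against a median of 52.1% over all windows.
Fos: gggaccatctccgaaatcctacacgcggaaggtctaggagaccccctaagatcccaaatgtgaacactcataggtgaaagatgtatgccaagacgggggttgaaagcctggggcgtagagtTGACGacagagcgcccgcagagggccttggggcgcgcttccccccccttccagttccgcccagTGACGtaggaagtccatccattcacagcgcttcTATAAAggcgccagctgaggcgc

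The share of cells with a Fos UMI was compared after thinning each cell to 1500 UMIs, a step that dropped 86 tumor cells without and 59 with MSA-2, 5 and 32 fibroblasts, 2 and 5 endothelial cells, 124 and 50 macrophages, 14 and 105 monocytes, 41 and 7 T cells, and 3 and 2 NK cells. Median depths of the classes before thinning ran from 3175 UMIs in untreated T cells to 20587 in untreated tumor cells. Fos was found in 78.5% (77.4 to 79.5) of untreated and 60.2% (58.99 to 61.3) of MSA-2 tumor cells (unthinned 98.5% and 96.8%). In macrophages it was found in 86.1% (84.9 to 87.3) of untreated and 86.9% (84.6 to 89.03) of MSA-2 macrophages (unthinned 96.7% and 94.7%), although the level was lower in MSA-2. Unlike in tumor cells, the share was not lower in MSA-2 in fibroblasts or endothelial cells either. Fibroblasts gave 78.1% (72.6 to 83.03) of untreated and 80.9% (77.8 to 83.8) of MSA-2 fibroblasts (unthinned 96.9% and 96.4%). Endothelial cells gave 70.2% (56.6 to 81.6) of untreated and 86.96% (76.7 to 93.9) of MSA-2 cells (unthinned 91.5% and 93.2%). No order is read from shares that go against the levels. The lowest untreated share of Fos was in NK cells, 42.7% (36.2 to 49.3) (unthinned 81.3%, median depth 5081 UMIs), and it is given as the background because no class is known to lack the gene.

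Fosb, a second Fos-family subunit, was lower in MSA-2 in every class, past 2-fold in 6 of 7. Monocytes held 611 CPM (575 to 647) in untreated and 120.4 CPM (109 to 133) in MSA-2, a log2 ratio of -2.34 (-2.51 to -2.17). That was the lowest of the 7 Fosb ratios. Macrophages held 939 CPM (925 to 952) in untreated and 305 CPM (290.2 to 320.0) in MSA-2, a log2 ratio of -1.62 (-1.70 to -1.55). In tumor cells Fosb was at 457 CPM (454 to 461) in untreated and 215 CPM (213 to 217) in MSA-2, a log2 ratio of -1.09 (-1.11 to -1.07). In fibroblasts it was at 1194 CPM (1157 to 1232) in untreated and 597 CPM (582 to 612) in MSA-2, a log2 ratio of -1.001 (-1.06 to -0.94). The fibroblast ratio sat at the 2-fold line and was within it with the stricter cell filter, the stricter gate, equal weight per cell and TMM scaling. T cells held 425 CPM (405 to 446) in untreated and 187 CPM (154 to 226) in MSA-2, a log2 ratio of -1.18 (-1.47 to -0.90). NK cells held 455 CPM (419 to 493) in untreated and 146 CPM (120.3 to 176) in MSA-2, a log2 ratio of -1.64 (-1.94 to -1.34). Endothelial cells were within 2-fold, with 863 CPM (788 to 944) in untreated and 451 CPM (405 to 500.4) in MSA-2, a log2 ratio of -0.94 (-1.14 to -0.74). Fibroblasts were highest and their intervals did not overlap those of any other class in either library, while the lowest class was T cells in untreated and monocytes in MSA-2. In untreated the neighbours macrophages and endothelial cells overlapped, as did tumor cells, NK cells and T cells in turn, and in MSA-2 tumor cells with T cells, T cells with NK cells, and NK cells with monocytes. With the median of all features taken off, Fosb stood at -0.80 in fibroblasts, -0.78 in endothelial cells and -2.09 in monocytes. The share of cells with a Fosb UMI at 1500 UMIs was 49.7% (45.1 to 54.3) of untreated and 16.8% (14.2 to 19.6) of MSA-2 monocytes (unthinned 70.7% and 29.8%), against 61.4% (59.7 to 63.02) of untreated and 31.2% (28.2 to 34.2) of MSA-2 macrophages (unthinned 85.7% and 58.9%).

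The Fosb window at chr7:19310056-19310295 on the minus strand lay outside any GENCODE gene and held TGACG 1 time, at 60 bases before the start.
Fosb: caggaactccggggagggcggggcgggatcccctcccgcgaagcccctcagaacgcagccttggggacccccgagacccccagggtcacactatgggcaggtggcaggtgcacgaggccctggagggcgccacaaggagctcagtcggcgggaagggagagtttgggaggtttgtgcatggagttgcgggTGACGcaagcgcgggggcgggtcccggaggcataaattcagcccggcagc

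Jun, the founding Jun-family subunit, stayed within 2-fold in all 7 classes. Tumor cells were highest in both libraries, with 2717 CPM (2709 to 2726) in untreated and 2092 CPM (2085 to 2099) in MSA-2, a log2 ratio of -0.38 (-0.38 to -0.37). Fibroblasts held 2339 CPM (2286 to 2392) in untreated and 1556 CPM (1531 to 1580.2) in MSA-2, a log2 ratio of -0.59 (-0.63 to -0.55), the lowest of the Jun ratios. In macrophages Jun was at 1861 CPM (1842 to 1879) in untreated and 1621 CPM (1587 to 1655) in MSA-2, a log2 ratio of -0.20 (-0.23 to -0.17). Endothelial cells held 2161 CPM (2040.2 to 2287) in untreated and 1907 CPM (1812 to 2006) in MSA-2, a log2 ratio of -0.18 (-0.29 to -0.07). Jun was thus modestly lower in MSA-2 in these 4 classes. In monocytes it was higher, at 814 CPM (774 to 857) in untreated and 1133 CPM (1096 to 1171) in MSA-2, a log2 ratio of 0.48 (0.39 to 0.56). NK cells also lay above 0, with 899 CPM (849 to 952) in untreated and 1176 CPM (1099.9 to 1256) in MSA-2, a log2 ratio of 0.39 (0.26 to 0.51). T cells held 912 CPM (882 to 942) in untreated and 904 CPM (828 to 985) in MSA-2, a log2 ratio of -0.01 (-0.15 to 0.12), which turned above 0 under TMM scaling and with equal weight per cell. No difference in Jun was detectable over all T cells at this depth, whereas it was below 0 in those with Cd8a or Cd8b1 UMIs. Monocytes, NK cells and T cells made up the lower end of the order in both libraries, where T cells overlapped NK cells and NK cells overlapped monocytes in untreated, and fibroblasts overlapped endothelial cells. In MSA-2 the overlapping neighbours were NK cells and monocytes. Measured from the median of all features, the value of Jun was -0.39 in fibroblasts, -0.02 in endothelial cells and 0.73 in monocytes. On that scale the endothelial value was close to 0. With a Jun UMI in 90.4% (89.6 to 91.1) of untreated and 88.9% (88.1 to 89.6) of MSA-2 tumor cells (unthinned 99.4% and 99.6%), Jun was the most widely detected member in tumor cells.

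The Jun window at chr4:95052233-95052472 on the minus strand lay within the GENCODE gene Junos, on no exon, and held none of the searched motifs, which says only that these letters were not in this window.
Jun: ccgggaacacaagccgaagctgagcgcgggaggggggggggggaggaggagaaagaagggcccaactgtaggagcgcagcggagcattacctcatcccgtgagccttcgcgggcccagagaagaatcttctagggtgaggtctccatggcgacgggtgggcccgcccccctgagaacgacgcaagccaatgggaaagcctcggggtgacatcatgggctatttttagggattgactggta

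Junb, the Jun-family subunit that in many settings restrains Jun, was lower in MSA-2 in all 7 classes, and most in lymphoid cells. NK cells held 1351 CPM (1289 to 1415) in untreated and 338 CPM (298 to 382) in MSA-2, a log2 ratio of -1.999 (-2.19 to -1.81). T cells held 1399.9 CPM (1363 to 1437) in untreated and 409 CPM (359 to 464) in MSA-2, a log2 ratio of -1.77 (-1.97 to -1.59). Both lymphoid classes moved from the middle of the order in untreated to its lower end in MSA-2. Macrophages also passed 2-fold, with 1846 CPM (1827 to 1865) in untreated and 888 CPM (863 to 914) in MSA-2, a log2 ratio of -1.06 (-1.10 to -1.01). In fibroblasts Junb was at 1915 CPM (1868 to 1963) in untreated and 1015 CPM (996 to 1035) in MSA-2, a log2 ratio of -0.92 (-0.96 to -0.87). In tumor cells it was at 1323 CPM (1317 to 1329) in untreated and 841 CPM (837 to 846) in MSA-2, a log2 ratio of -0.65 (-0.66 to -0.64). The other classes were lower in MSA-2 too, within 2-fold. Monocytes held 1479 CPM (1424 to 1536) in untreated and 932 CPM (898 to 966) in MSA-2, a log2 ratio of -0.67 (-0.74 to -0.59). Endothelial cells held 1326 CPM (1232 to 1426) in untreated and 903 CPM (838 to 972) in MSA-2, a log2 ratio of -0.55 (-0.71 to -0.40). Levels were even in untreated, where fibroblasts at the top were 1.45 times tumor cells at the bottom and 4 pairs of neighbours overlapped, from monocytes through T cells, NK cells and endothelial cells to tumor cells. In MSA-2 fibroblasts were 3.00 times NK cells, and the overlapping neighbours were monocytes with endothelial cells, endothelial cells with macrophages, and T cells with NK cells. Relative to the median of all features, the Junb ratio was -0.71 in fibroblasts, -0.39 in endothelial cells and -0.41 in monocytes. In the thinned cells Junb was found in 81.8% (79.3 to 84.1) of untreated and 42.3% (33.02 to 52.1) of MSA-2 T cells (unthinned 93.7% and 74.6%). NK cells gave 82.8% (77.3 to 87.4) of untreated and 42.2% (32.4 to 52.3) of MSA-2 NK cells (unthinned 98.3% and 84.6%). Its promoter window at chr8:84978759-84978998 on the minus strand, outside any GENCODE gene, held TGACG 1 time, at 106 bases before the start.

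Egr1 had the widest spread between classes in sign and size. Tumor cells, with 623 CPM (619 to 627) in untreated and 383 CPM (380.3 to 386) in MSA-2, a log2 ratio of -0.70 (-0.71 to -0.68), were lower in MSA-2. Monocytes were higher, with 167 CPM (148 to 186) in untreated and 379 CPM (358 to 401) in MSA-2, a log2 ratio of 1.19 (1.003 to 1.37). That was 1 of only 2 ratios past 2-fold upward among the 70. Macrophages held 371 CPM (362 to 379) in untreated and 475 CPM (457 to 494) in MSA-2, a log2 ratio of 0.36 (0.29 to 0.42). In endothelial cells Egr1 was at 694 CPM (626 to 767) in untreated and 847 CPM (784 to 914) in MSA-2, a log2 ratio of 0.29 (0.11 to 0.47). In fibroblasts, the class with the highest level in both libraries, it was at 1444 CPM (1403 to 1486) in untreated and 1547 CPM (1522 to 1571) in MSA-2, a log2 ratio of 0.10 (0.05 to 0.15). The fibroblast value was a near-equal level on class totals. T cells held 148 CPM (136 to 161) in untreated and 112 CPM (86.2 to 142) in MSA-2, a log2 ratio of -0.41 (-0.80 to -0.04). NK cells held 136 CPM (117 to 158) in untreated and 112 CPM (89.1 to 138) in MSA-2, a log2 ratio of -0.29 (-0.68 to 0.10). These lymphoid levels were the lowest and overlapped each other in both libraries, so they serve as the background for Egr1. In untreated endothelial cells overlapped tumor cells, and monocytes overlapped T cells, whereas in MSA-2 monocytes had moved up to overlap tumor cells. Set against all features, Egr1 was at 0.30 in fibroblasts, 0.45 in endothelial cells and 1.44 in monocytes. At 1500 UMIs, Egr1 was found in 53.8% (52.6 to 55.1) of untreated and 38.1% (36.9 to 39.3) of MSA-2 tumor cells (unthinned 94.03% and 88.2%). Monocytes gave 20.1% (16.6 to 24.1) of untreated and 34.1% (30.8 to 37.6) of MSA-2 monocytes (unthinned 38.05% and 53.8%). The untreated monocyte share was near that of untreated T cells, 21.7% (19.2 to 24.3), while the MSA-2 monocyte share was above both T cell shares.

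Atf3, a stress-induced factor that often acts as a repressor, was higher in MSA-2 in monocytes, T cells and NK cells and lower in tumor cells, fibroblasts and macrophages. T cells held 273 CPM (257 to 289.6) in untreated and 559 CPM (499.5 to 623) in MSA-2, a log2 ratio of 1.03 (0.85 to 1.22). Monocytes held 666 CPM (629 to 705) in untreated and 1249.9 CPM (1211 to 1289.6) in MSA-2, a log2 ratio of 0.91 (0.81 to 1.001). NK cells held 412 CPM (378 to 448) in untreated and 765 CPM (704 to 830.2) in MSA-2, a log2 ratio of 0.89 (0.72 to 1.07). In these 3 classes the interval lay wholly above 0, and T cells alone passed 2-fold on class totals, a step lost when doublets were kept or cells weighted equally, while monocytes passed it under TMM scaling. Macrophages, where Atf3 was highest in untreated, held 1748 CPM (1729.8 to 1766) in untreated and 1229 CPM (1199 to 1259) in MSA-2, a log2 ratio of -0.51 (-0.55 to -0.47). Fibroblasts held 400.0 CPM (378 to 422) in untreated and 229.7 CPM (220.5 to 239) in MSA-2, a log2 ratio of -0.80 (-0.90 to -0.70). Tumor cells, the lowest class in both libraries, held 105 CPM (103 to 106) in untreated and 69.1 CPM (67.8 to 70.4) in MSA-2, a log2 ratio of -0.60 (-0.63 to -0.56). The interval lay wholly below 0 in these 3 classes. Endothelial cells held 1186 CPM (1097 to 1280.0) in untreated and 1273 CPM (1195 to 1354) in MSA-2, a log2 ratio of 0.10 (-0.04 to 0.25), an interval that included 0. Atf3 was the member with the widest range between classes in MSA-2 on class totals, from endothelial cells down to tumor cells, 18.4-fold. NK cells and fibroblasts were overlapping neighbours in untreated, and in MSA-2 endothelial cells overlapped monocytes and monocytes overlapped macrophages. With the median of all features taken off, Atf3 stood at -0.60 in fibroblasts, 0.26 in endothelial cells and 1.16 in monocytes. The share of cells with an Atf3 UMI was higher in MSA-2 in monocytes, with 41.3% (36.8 to 45.9) of untreated and 71.4% (68.01 to 74.5) of MSA-2 monocytes (unthinned 61.3% and 84.8%). NK cells gave 31.03% (25.1 to 37.4) of untreated and 56.9% (46.7 to 66.6) of MSA-2 NK cells (unthinned 62.98% and 83.7%), and the tumor cell background was 13.9% (13.1 to 14.8) of untreated and 9.86% (9.16 to 10.6) of MSA-2 tumor cells (unthinned 65.4% and 54.4%). Macrophage shares were near equal, 68.8% (67.2 to 70.4) of untreated and 69.9% (66.9 to 72.8) of MSA-2 macrophages (unthinned 86.4% and 89.7%), although the level was lower in MSA-2.

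The Atf3 window at chr1:191183344-191183583 on the minus strand lay within Atf3 as GENCODE annotates it but on no exon, and held none of the searched motifs.
Atf3: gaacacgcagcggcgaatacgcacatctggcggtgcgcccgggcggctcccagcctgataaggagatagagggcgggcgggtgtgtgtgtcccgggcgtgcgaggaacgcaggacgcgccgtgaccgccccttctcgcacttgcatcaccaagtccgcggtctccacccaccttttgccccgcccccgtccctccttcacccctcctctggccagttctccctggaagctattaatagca

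The 3 Nr4a genes, which code for nuclear receptors induced among other signals by antigen receptors, had ratios below 0 in all 7 classes, but in endothelial cells the intervals of Nr4a2 and Nr4a3 included 0. NK cells held Nr4a1 at 174 CPM (153 to 199) in untreated and 41.2 CPM (28.02 to 58.5) in MSA-2, a log2 ratio of -2.08 (-2.67 to -1.54). T cells held 212 CPM (198 to 227) in untreated and 67.03 CPM (47.7 to 91.6) in MSA-2, a log2 ratio of -1.66 (-2.16 to -1.20). The lymphoid classes thus had the lowest Nr4a1 ratios, but their intervals overlapped those of endothelial cells and macrophages. Endothelial cells held 168 CPM (135 to 205) in untreated and 55.9 CPM (40.6 to 75.04) in MSA-2, a log2 ratio of -1.58 (-2.14 to -1.05). Macrophages held 227 CPM (221 to 234) in untreated and 78.8 CPM (71.4 to 86.7) in MSA-2, a log2 ratio of -1.53 (-1.68 to -1.38). Fibroblasts, highest in both libraries except with equal weight per cell in MSA-2, held 378 CPM (357 to 399.8) in untreated and 155 CPM (147 to 163) in MSA-2, a log2 ratio of -1.29 (-1.40 to -1.18). These differences too were past 2-fold. In monocytes Nr4a1 was at 250.1 CPM (228 to 274) in untreated and 115 CPM (103 to 127) in MSA-2, a log2 ratio of -1.12 (-1.33 to -0.92). Under TMM scaling the monocyte ratio was within 2-fold. Tumor cells were within 2-fold on class totals as well, with 275 CPM (272 to 278) in untreated and 150.2 CPM (148 to 152) in MSA-2, a log2 ratio of -0.87 (-0.90 to -0.85). Fibroblasts stood above the other classes in untreated, 2.26 times endothelial cells, the lowest, and 5 pairs of neighbours overlapped from tumor cells down through monocytes, macrophages, T cells and NK cells to endothelial cells. In MSA-2 fibroblasts overlapped tumor cells, and macrophages, T cells, endothelial cells and NK cells overlapped in turn. Measured from the median of all features, the value of Nr4a1 was -1.09 in fibroblasts, -1.42 in endothelial cells and -0.87 in monocytes. At 1500 UMIs the share of cells with a Nr4a1 UMI was 22.8% (17.6 to 28.8) of untreated and 2.94% (0.611 to 8.36) of MSA-2 NK cells (unthinned 52.3% and 21.2%), and 35.7% (34.6 to 36.9) of untreated and 21.5% (20.6 to 22.5) of MSA-2 tumor cells (unthinned 90.6% and 80.5%).

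Nr4a2 was highest in T cells in both libraries, with 638 CPM (613 to 664) in untreated and 292 CPM (249.9 to 339.6) in MSA-2, a log2 ratio of -1.13 (-1.36 to -0.90). NK cells held 334 CPM (304 to 367) in untreated and 177 CPM (148 to 209.7) in MSA-2, a log2 ratio of -0.92 (-1.21 to -0.64). Fibroblasts held 153 CPM (139.5 to 167) in untreated and 34.3 CPM (30.8 to 38.1) in MSA-2, a log2 ratio of -2.15 (-2.36 to -1.95), the lowest Nr4a2 ratio. Monocytes were close to that, with 299 CPM (275 to 325) in untreated and 70.4 CPM (61.4 to 80.3) in MSA-2, a log2 ratio of -2.09 (-2.32 to -1.86). Fibroblasts and monocytes thus had the largest fold differences of Nr4a2. In tumor cells Nr4a2 was at 232 CPM (229.6 to 235) in untreated and 85.97 CPM (84.5 to 87.4) in MSA-2, a log2 ratio of -1.43 (-1.46 to -1.40). In macrophages it was at 130.5 CPM (126 to 136) in untreated and 55.6 CPM (49.4 to 62.3) in MSA-2, a log2 ratio of -1.23 (-1.41 to -1.06). Endothelial cells had only 19 and 21 UMIs of Nr4a2, 34.2 CPM (20.6 to 53.5) in untreated and 26.7 CPM (16.5 to 40.8) in MSA-2, a log2 ratio of -0.36 (-1.33 to 0.62), and no difference was detectable there, although the ratio passed 2-fold with doublets kept or with equal weight per cell. Monocytes and NK cells overlapped in untreated, while in MSA-2 monocytes had moved below tumor cells to overlap macrophages and fibroblasts overlapped endothelial cells. Relative to the median of all features, the Nr4a2 ratio was -1.95 in fibroblasts, -0.20 in endothelial cells and -1.83 in monocytes. The share of thinned cells with a Nr4a2 UMI was 46.6% (43.5 to 49.8) of untreated and 30.6% (22.2 to 40.1) of MSA-2 T cells (unthinned 62.5% and 55.1%) and 29.3% (25.2 to 33.7) of untreated and 9.51% (7.52 to 11.8) of MSA-2 monocytes (unthinned 54.9% and 17.6%).

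Nr4a3 had the largest difference of any member in tumor cells, 106 CPM (104 to 107) in untreated and 24.1 CPM (23.4 to 24.9) in MSA-2, a log2 ratio of -2.13 (-2.18 to -2.08). Fibroblasts held 174 CPM (159.9 to 189) in untreated and 43.7 CPM (39.7 to 47.98) in MSA-2, a log2 ratio of -1.99 (-2.18 to -1.81). T cells held 251 CPM (236 to 267) in untreated and 99.7 CPM (75.7 to 129) in MSA-2, a log2 ratio of -1.33 (-1.74 to -0.95). These 3 classes were all past 2-fold. NK cells held 219 CPM (194 to 246) in untreated and 105 CPM (83.2 to 131) in MSA-2, a log2 ratio of -1.06 (-1.44 to -0.69). Monocytes held 138 CPM (121 to 156) in untreated and 57.99 CPM (49.9 to 67.1) in MSA-2, a log2 ratio of -1.25 (-1.53 to -0.97). The NK cell ratio was within 2-fold with equal weight per cell, and the monocyte ratio under TMM scaling. Macrophages were just short of 2-fold, and past it with doublets kept, with 98.3 CPM (94.1 to 103) in untreated and 51.5 CPM (45.6 to 57.9) in MSA-2, a log2 ratio of -0.93 (-1.12 to -0.75). Endothelial cells had 12 and 7 UMIs, 21.6 CPM (11.2 to 37.8) in untreated and 8.89 CPM (3.58 to 18.3) in MSA-2, a log2 ratio of -1.28 (-2.87 to 0.18), and were not counted. T cells and NK cells overlapped at the top of the order in both libraries, and in MSA-2 monocytes overlapped macrophages and macrophages overlapped fibroblasts, with tumor cells below them. Set against all features, Nr4a3 was at -1.79 in fibroblasts, -1.12 in endothelial cells and -0.99 in monocytes. A Nr4a3 UMI was found in 17.6% (16.7 to 18.6) of untreated and 4.11% (3.64 to 4.61) of MSA-2 tumor cells (unthinned 66.99% and 29.6%), and the endothelial share of 1.75% (0.0444 to 9.39) in untreated was the lowest background.

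The Nr4a promoters held the largest numbers of TGACG matches, 4 each in Nr4a1, Nr4a2 and Nr4a3, but most of the Nr4a3 window lay on exons of that gene as GENCODE annotates it, and it is not shown. In Nr4a1, at chr15:101266596-101266835 on the plus strand and within the gene as GENCODE annotates it but on no exon, they lay 233, 213, 69 and 40 bases before the start. In Nr4a2, at chr2:57124014-57124253 on the minus strand and outside any GENCODE gene, they lay at 200, 144, 123 and 111 bases, with TATAAA at 164 bases on the reverse strand. G and C made up 74.2% and 79.6% of these windows, above the median of all windows.
Nr4a1: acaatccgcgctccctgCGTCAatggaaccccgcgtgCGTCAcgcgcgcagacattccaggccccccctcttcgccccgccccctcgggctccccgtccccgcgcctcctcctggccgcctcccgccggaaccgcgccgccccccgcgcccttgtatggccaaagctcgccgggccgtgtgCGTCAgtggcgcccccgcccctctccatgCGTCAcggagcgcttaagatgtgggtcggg
Nr4a2: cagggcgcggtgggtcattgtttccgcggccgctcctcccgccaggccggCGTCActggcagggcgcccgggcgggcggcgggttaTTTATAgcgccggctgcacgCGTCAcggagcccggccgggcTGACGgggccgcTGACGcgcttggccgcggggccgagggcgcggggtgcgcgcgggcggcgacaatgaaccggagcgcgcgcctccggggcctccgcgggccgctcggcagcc

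Ier2 was lower in MSA-2 in all 7 classes and past 2-fold in 4 on class totals. The fibroblast call was lost under TMM scaling and with equal weight per cell, the T cell call was lost with equal weight per cell, and macrophages passed 2-fold with doublets kept. NK cells held 376 CPM (343 to 411) in untreated and 146 CPM (120.3 to 176) in MSA-2, a log2 ratio of -1.36 (-1.67 to -1.06). Tumor cells held 776 CPM (771 to 780.2) in untreated and 337 CPM (335 to 340.3) in MSA-2, a log2 ratio of -1.20 (-1.22 to -1.19). T cells held 426 CPM (406 to 447) in untreated and 198 CPM (163 to 237) in MSA-2, a log2 ratio of -1.11 (-1.39 to -0.84). These were the 3 lowest Ier2 ratios. Fibroblasts, highest in both libraries, held 1072 CPM (1036 to 1108) in untreated and 535 CPM (520.4 to 549) in MSA-2, a log2 ratio of -1.003 (-1.07 to -0.94). In macrophages Ier2 was at 406 CPM (397 to 415) in untreated and 209.6 CPM (197 to 222) in MSA-2, a log2 ratio of -0.95 (-1.05 to -0.86). In endothelial cells it was at 649 CPM (583 to 719) in untreated and 346 CPM (306 to 389) in MSA-2, a log2 ratio of -0.91 (-1.14 to -0.68). Monocytes differed least, with 387 CPM (359 to 417) in untreated and 277 CPM (259 to 296) in MSA-2, a log2 ratio of -0.48 (-0.63 to -0.34). T cells, macrophages, monocytes and NK cells overlapped in turn at the lower end of the untreated order, and in MSA-2 endothelial cells overlapped tumor cells, macrophages overlapped T cells, and T cells overlapped NK cells. With the median of all features taken off, Ier2 stood at -0.80 in fibroblasts, -0.75 in endothelial cells and -0.23 in monocytes. Its thinned shares were 58.7% (57.5 to 59.9) of untreated and 36.7% (35.6 to 37.9) of MSA-2 tumor cells (unthinned 96.5% and 90.5%), and 50% (43.4 to 56.6) of untreated and 19.6% (12.4 to 28.6) of MSA-2 NK cells (unthinned 82.98% and 63.5%).

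Over all kept cells, where the makeup of classes differs between libraries, Atf3 was at 323 and 159.6 CPM (log2 ratio -1.01) in untreated and MSA-2. That ratio was below 0, while the ratio within 4 of the 7 classes was above 0, in endothelial cells with an interval that included 0. Within tumor cells (-0.60), fibroblasts (-0.80) and macrophages (-0.51) the Atf3 ratio was below 0. Macrophages, which held much Atf3, made up 26.2% of untreated and 7.47% of MSA-2 cells. The part of class makeup in the ratio over all cells was not tested. Egr1 over all cells was at 596 and 475 CPM (log2 ratio -0.33), and Nr4a3 at 119 and 30.5 CPM (log2 ratio -1.96). Neutrophils (33 untreated and 2602 MSA-2 cells) and dendritic cells (220 and 19) had too few cells in 1 library for a ratio. In MSA-2 neutrophils, Junb led at 2381 CPM, followed by Jun at 1024 CPM, Egr1 at 869 CPM and Fos at 707 CPM. Untreated dendritic cells held Nr4a3 at 583 CPM, above the 251 CPM of untreated T cells.

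Per cell, fewer of the 10 members were detected in MSA-2 in 6 of 7 classes at 1500 UMIs and in all 7 at 1000 UMIs. After thinning, the mean number of members with a UMI in tumor cells was 5.01 in untreated and 3.67 in MSA-2 (unthinned 8.91 and 7.90). In macrophages it was 5.07 in untreated and 4.21 in MSA-2 (unthinned 7.30 and 6.14), and in fibroblasts 5.67 in untreated and 4.76 in MSA-2 (unthinned 8.43 and 7.53). Monocytes gave 4.43 in untreated and 4.04 in MSA-2 (unthinned 6.47 and 5.39), T cells 4.31 in untreated and 3.12 in MSA-2 (unthinned 6.23 and 5.57) and NK cells 4.29 in untreated and 3.26 in MSA-2 (unthinned 7.26 and 6.43). Endothelial cells alone gave a higher mean in MSA-2 at 1500 UMIs, 4.70 in untreated and 4.80 in MSA-2 (unthinned 7.03 and 6.69), and there the values unthinned and at 1000 UMIs (4.07 and 3.89) had the opposite order. At least 5 members were found in 60.4% (59.1 to 61.6) of untreated and 31.8% (30.7 to 32.9) of MSA-2 tumor cells. The T cell shares were 45.2% (42.1 to 48.4) and 17.1% (10.6 to 25.4), and those of monocytes 45.8% (41.2 to 50.5) and 37.9% (34.4 to 41.4), whose intervals overlapped slightly.

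**Figure D3:**
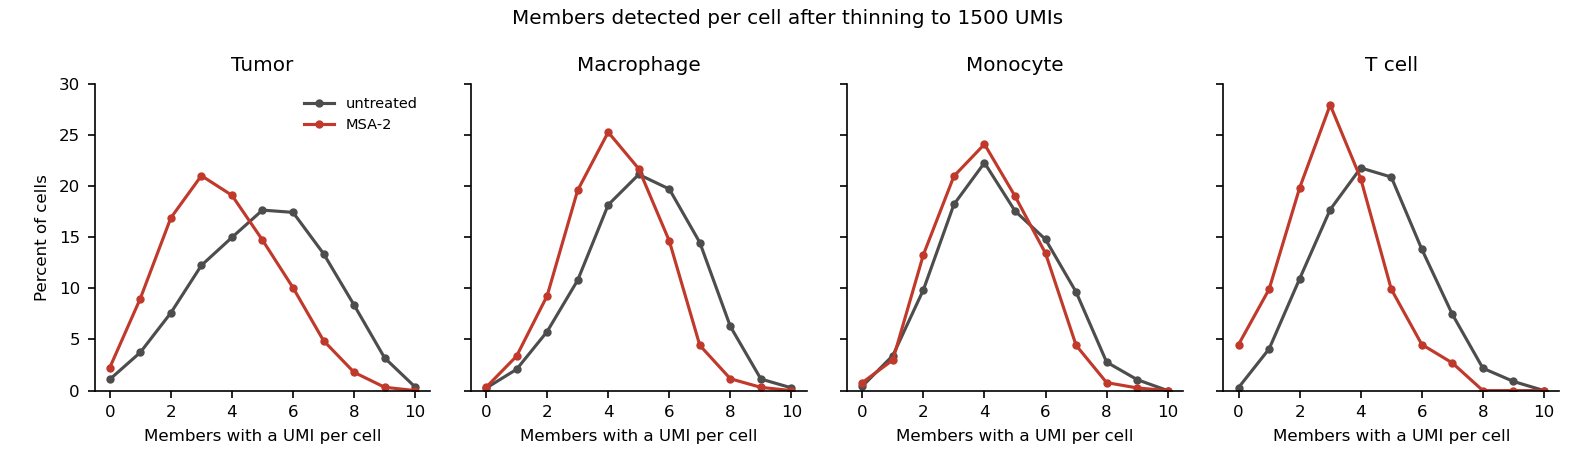
Percent of cells (vertical axis) by the number of members with a UMI in the cell after thinning to 1500 UMIs (horizontal axis, 0 to 10), in tumor cells, macrophages, monocytes and T cells, with untreated in grey and MSA-2 in red. The MSA-2 curve sits to the left in tumor cells, where the mean was 5.01 in untreated and 3.67 in MSA-2, and the curves lie closest in monocytes.

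Fos and Jun tended to occur in the same tumor cells. In untreated tumor cells thinned to 1500 UMIs, 81.2% (80.2 to 82.2) of the 5684 cells with a Jun UMI held Fos and 52.7% (48.7 to 56.8) of the 607 cells without one. In MSA-2 tumor cells, 62.6% (61.3 to 63.8) of the 5974 cells with a Jun UMI held Fos and 40.8% (37.3 to 44.5) of the 747 cells without one. Fos was thus more frequent beside Jun in both libraries, and lower in MSA-2 with or without Jun. For Atf3 in untreated macrophages, 75.6% (73.9 to 77.3) of the 2582 cells with a Jun UMI held Atf3 and 46.2% (42.7 to 49.8) of the 783 cells without one. In untreated T cells, 30.6% (27.01 to 34.3) of the 638 cells with a Jun UMI held Atf3 and 21.7% (17.6 to 26.3) of the 368 cells without one, intervals that did not overlap. In MSA-2 T cells the shares were 47.8% (35.6 to 60.2) of 69 cells and 38.1% (23.6 to 54.4) of 42, and these intervals overlapped. Fos gave no such gap in untreated T cells. In untreated T cells, 26.95% (23.1 to 31.1) of the 486 cells with a Fos UMI held Atf3 and 27.7% (23.9 to 31.8) of the 520 cells without one. In MSA-2 T cells, 34.6% (21.97 to 49.1) of the 52 cells with a Fos UMI held Atf3 and 52.5% (39.1 to 65.7) of the 59 cells without one. The intervals with and without Fos overlapped in both T cell libraries. Cells of 1 library share their preparation, so these shares are a description.

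In finer divisions of tumor cells, of T cells with Cd8a or Cd8b1 UMIs and of macrophages, the ratios of Fosb, Junb, Nr4a1, Nr4a2, Nr4a3 and Ier2 were also below 0. Tumor cells were divided after thinning, without the 86 and 59 cells below 1500 UMIs. In the 1003 untreated and 1215 MSA-2 tumor cells with UMIs of at least 3 of 10 cycling markers, Fos was at 1440.0 CPM without and 775 CPM with MSA-2, a log2 ratio of -0.89 (-0.92 to -0.87). In the 5288 and 5506 other tumor cells, Fos was at 1849.8 CPM without and 933 CPM with MSA-2, a log2 ratio of -0.99 (-0.998 to -0.98). All 10 members were below 0 in both groups, with medians of -0.88 and -0.93. Nr4a2 and Junb had the largest gaps between these groups, and the gaps were not tested. Nr4a2 was at -1.09 in cycling cells and -1.49 in the others. Junb was at 938 CPM without and 733 CPM with MSA-2, a log2 ratio of -0.36 (-0.38 to -0.33), in cycling cells, against 1434 CPM without and 875 CPM with MSA-2, a log2 ratio of -0.71 (-0.72 to -0.70), in the others. Among T cells with a Cd8a or Cd8b1 UMI (689 and 79), Junb was at 1355 CPM without and 346 CPM with MSA-2, a log2 ratio of -1.97 (-2.21 to -1.74), and Atf3 at 298 CPM without and 609 CPM with MSA-2, a log2 ratio of 1.03 (0.83 to 1.23). In these cells Jun was at 968 CPM without and 833 CPM with MSA-2, a log2 ratio of -0.22 (-0.38 to -0.06). Fos was at 483 CPM without and 368 CPM with MSA-2, a log2 ratio of -0.39 (-0.64 to -0.16). T cells with a Cd4 or a Foxp3 UMI were only 7 and 6 in MSA-2, too few for a comparison, and Ier2 in the latter was at 226 CPM without and 246 CPM with MSA-2, from 77 and 6 UMIs. In those with a Foxp3 UMI, Fos was at 309 and 862 CPM, from 105 and 21 UMIs. Jun was at 602 and 1313 CPM there, from 205 and 32 UMIs, and 6 members were below 0. Macrophages with fewer than 2 resident-like markers (3452 and 904) held Egr1 at 361 CPM without and 428 CPM with MSA-2, a log2 ratio of 0.25 (0.17 to 0.32), and Fosb at 939 CPM without and 289 CPM with MSA-2, a log2 ratio of -1.70 (-1.78 to -1.62). Egr1 went the other way in resident-like macrophages, at 1133 CPM without and 755 CPM with MSA-2, a log2 ratio of -0.59 (-0.79 to -0.38). Resident-like cells numbered only 37 without and 96 with MSA-2.

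Over the 14 class-by-library sums, which share libraries and differ in depth, the genes most like Fos in log2(CPM + 10) among 3501 genes compared were Marcks (0.952), Tcf7l2 (0.944) and Lamp1 (0.937), with Pearson's r in parentheses. Genes most like Jun were Prdx4 (0.916) and Dip2c (0.909), and those most like Egr1 Laptm4a (0.935), Nfia (0.932) and Selenom (0.930). For Atf3 they were Phactr2 (0.899), Ehd4 (0.883) and Pfkfb3 (0.878), for Nr4a1 Atp13a3 (0.887), Ttc19 (0.881) and Btg2 (0.876), and for Ier2 Mettl9 (0.919), Atraid (0.911) and Pmepa1 (0.903). Btg2, itself an immediate-early gene that restrains the cell cycle, was the only gene named here that is on the list of other immediate-early genes. Among the 45 pairs of members r had a median of 0.301 and was above 0 for 30, from -0.707 between Egr1 and Nr4a2 to 0.892 between Nr4a2 and Nr4a3. The members thus did not form 1 common profile over classes, and these values are descriptions with no test.

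Other immediate-early genes, a list of 35, had a higher median than the members in each class. Past 2-fold in MSA-2 they were 8 lower and 1 higher of 33 in tumor cells, 8 lower and 1 higher of 34 in fibroblasts, 4 lower and 5 higher of 30 in endothelial cells, 7 lower and 3 higher of 34 in macrophages, 5 lower and 5 higher of 30 in monocytes, 5 lower and 2 higher of 31 in T cells and 6 lower and 3 higher of 30 in NK cells. Their medians were -0.28 in tumor cells, -0.39 in fibroblasts, -0.09 in endothelial cells, -0.22 in macrophages, 0.34 in monocytes, -0.46 in T cells and -0.26 in NK cells. The endothelial median turned above 0 under TMM scaling and with at least 100 UMIs. Btg2 was at 616 CPM without and 238 CPM with MSA-2 in tumor cells, a log2 ratio of -1.37, and at 549.8 CPM without and 113 CPM with MSA-2 in T cells, -2.28. Jund, the AP-1 subunit most steadily expressed at rest, lay below 0 in all 7 classes, from -1.33 in monocytes to -0.57 in NK cells. Each of these intervals lay wholly below 0. In macrophages Jund was at 1140.0 CPM without and 526 CPM with MSA-2, -1.12. It is also counted in the list of other bZIP genes given below. Cebpd, a factor of acute inflammation, lay above 0 in all 7 classes, from 0.57 in macrophages to 1.37 in tumor cells. In monocytes Gem, a small GTPase, was at 6.01 CPM without and 71.05 CPM with MSA-2, 3.56, and Ier3 at 533 CPM without and 1678 CPM with MSA-2, 1.65. On class totals the monocyte counts of this list were not far above the background of all features there (11.8% lower and 11.4% higher). Under TMM scaling they became 3 lower and 10 higher, and that background does not apply to them.

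**Figure D4:**
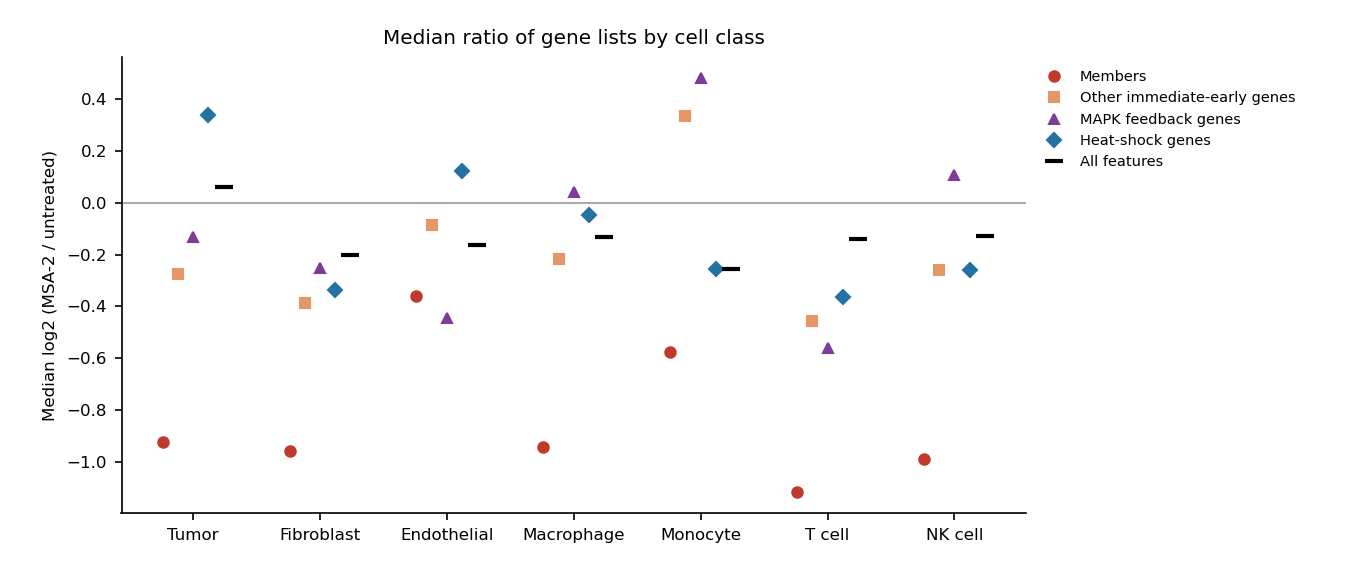
Median log2 ratio of MSA-2 over untreated (vertical axis) of the members, of other immediate-early genes, of MAP kinase feedback genes, of heat-shock genes and of all features, in 7 cell classes (horizontal axis). The members' median is the lowest of the 5 in each class but endothelial cells, where the feedback genes are lower (-0.45 against -0.36).

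Genes that feed back on MAP kinases, 12 phosphatases and inhibitors, were 1 lower and 0 higher of 12 in tumor cells, 3 lower and 0 higher of 12 in fibroblasts, 2 lower and 0 higher of 11 in endothelial cells, 0 lower and 0 higher of 12 in macrophages, 0 lower and 2 higher of 9 in monocytes, 3 lower and 0 higher of 11 in T cells and 2 lower and 1 higher of 9 in NK cells past 2-fold. Their medians were -0.13 in tumor cells, -0.25 in fibroblasts, -0.45 in endothelial cells, 0.04 in macrophages, 0.48 in monocytes, -0.56 in T cells and 0.11 in NK cells. The NK cell median turned below 0 with at least 100 UMIs, and the NK cell sum of these genes was 2024 and 1047 CPM (log2 ratio -0.95), while the fibroblast median turned above 0 under TMM scaling. Dusp1, a phosphatase induced beside Fos, was at 609.5 CPM without and 1651 CPM with MSA-2 in monocytes, 1.44, and at 474 CPM without and 427 CPM with MSA-2 in tumor cells, -0.15. Dusp2 was at 709.7 CPM without and 232 CPM with MSA-2 in T cells, -1.61. Upstream kinases and factors, 27 genes, were 1 lower and 0 higher of 27 in tumor cells, 3 lower and 1 higher of 27 in fibroblasts, 1 lower and 1 higher of 22 in endothelial cells, 1 lower and 0 higher of 27 in macrophages, 3 lower and 2 higher of 27 in monocytes, 3 lower and 0 higher of 26 in T cells and 3 lower and 0 higher of 25 in NK cells, with medians of -0.02 in tumor cells, -0.34 in fibroblasts, -0.31 in endothelial cells, -0.35 in macrophages, -0.21 in monocytes, -0.20 in T cells and -0.28 in NK cells. Under TMM scaling the monocyte counts became 1 lower and 4 higher and their median crossed 0. Srf, which binds the CArG box, was at 11.04 CPM without and 10.9 CPM with MSA-2 in tumor cells, -0.02. The 16 other bZIP genes, possible partners of Fos, Jun and Atf3, were 3 lower and 0 higher of 16 in tumor cells, 3 lower and 1 higher of 14 in fibroblasts, 1 lower and 1 higher of 13 in endothelial cells, 2 lower and 2 higher of 16 in macrophages, 2 lower and 0 higher of 16 in monocytes, 1 lower and 0 higher of 14 in T cells and 2 lower and 1 higher of 14 in NK cells, with medians of -0.06 in tumor cells, -0.36 in fibroblasts, -0.19 in endothelial cells, -0.14 in macrophages, -0.05 in monocytes, -0.61 in T cells and -0.28 in NK cells. Under TMM scaling 3 of them were higher in monocytes and the monocyte median turned above 0. Batf3 was at 36.00 CPM without and 6.17 CPM with MSA-2 in macrophages, -2.54. The 9 genes of the integrated stress response, through which Atf3 can be induced, were 0 lower and 0 higher of 9 in tumor cells, 0 lower and 1 higher of 9 in fibroblasts, 1 lower and 2 higher of 8 in endothelial cells, 0 lower and 3 higher of 9 in macrophages, 0 lower and 4 higher of 9 in monocytes, 1 lower and 3 higher of 8 in T cells and 0 lower and 1 higher of 7 in NK cells, with medians of 0.05 in tumor cells, 0.27 in fibroblasts, 0.12 in endothelial cells, 0.46 in macrophages, 0.91 in monocytes, 0.43 in T cells and 0.28 in NK cells. The tumor cell median turned below 0 under TMM scaling. Ppp1r15a was at 223 CPM without and 2263 CPM with MSA-2 in monocytes, 3.34, and at 279 CPM without and 1224 CPM with MSA-2 in T cells, 2.13. In macrophages, where Atf3 was lower, Ppp1r15a was at 626 CPM without and 1653 CPM with MSA-2, 1.40. Not all genes of this list went that way, and 3 of the 9 were below 0 in monocytes. Atf4 was at 181 CPM without and 140 CPM with MSA-2 in monocytes, -0.37 (-0.58 to -0.16). Its ratio was below 0 in all 7 classes, with intervals that included 0 in endothelial cells, T cells and NK cells.

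Interferon-stimulated genes, a list of 8 given as a sign of the treatment, were 0 lower and 7 higher of 8 in tumor cells, 0 lower and 8 higher of 8 in fibroblasts, 0 lower and 8 higher of 8 in endothelial cells, 0 lower and 6 higher of 8 in macrophages, 0 lower and 8 higher of 8 in monocytes, 0 lower and 8 higher of 8 in T cells and 0 lower and 7 higher of 8 in NK cells past 2-fold, with medians of 1.72 in tumor cells, 2.93 in fibroblasts, 3.84 in endothelial cells, 1.78 in macrophages, 3.02 in monocytes, 2.90 in T cells and 1.55 in NK cells. Rsad2 was at 454 CPM without and 6606 CPM with MSA-2 in monocytes. The members therefore lay mostly below 0 in the same classes in which this list lay above it.

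Heat-shock genes, which dissociation also raises, are given as values beside the members, and the part of dissociation in the members' levels was not tested. The 13 heat-shock genes were 0 lower and 0 higher of 13 in tumor cells, 0 lower and 0 higher of 13 in fibroblasts, 0 lower and 1 higher of 13 in endothelial cells, 0 lower and 0 higher of 13 in macrophages, 0 lower and 2 higher of 13 in monocytes, 2 lower and 0 higher of 13 in T cells and 1 lower and 1 higher of 13 in NK cells past 2-fold, with medians of 0.34 in tumor cells, -0.34 in fibroblasts, 0.12 in endothelial cells, -0.05 in macrophages, -0.26 in monocytes, -0.37 in T cells and -0.26 in NK cells. The monocyte median turned above 0 under TMM scaling. Summed, they were at 9909.8 and 11057 CPM in untreated and MSA-2 tumor cells, 9759.6 and 8469 CPM in fibroblasts, 10735 and 11725 CPM in endothelial cells and 7538 and 6816 CPM in macrophages. The sums were 6053 and 4337 CPM in monocytes, 12598 and 9338 CPM in T cells and 9877 and 7539 CPM in NK cells. The heat-shock sum was thus higher in MSA-2 in tumor cells and endothelial cells, where the members' sum was lower. On class totals both sums were lower in the other 5 classes, though the members' sums were nearly equal in monocytes. Hsp90ab1, at 2457 CPM without and 2686 CPM with MSA-2, and Hspa8, at 2170.0 CPM without and 2742 CPM with MSA-2, were the most abundant of them in tumor cells. In tumor cells Hspa1a (-0.85), Dnajb1 (-0.75), Dnaja1 (-0.36) and Hspa1b (-0.27) were lower in MSA-2 by log2 ratio, as the members were, and the other 9 genes were higher. Per thinned cell, the numbers of members and of heat-shock genes detected had an r of 0.208 in 6291 untreated and 0.116 in 6721 MSA-2 tumor cells. In T cells r was 0.295 in 1006 and 0.0560 in 111 cells. In endothelial cells, which had the highest values, r was 0.561 in 57 and 0.364 in 69 cells, and in each of the 7 classes r was higher in untreated than in MSA-2. These cells share library and depth, so the values are a description with no test.

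Markers of other classes are given beside the members as signs of free RNA or mixed droplets, and their part in the members' levels was not tested. In tumor cells all 10 macrophage markers had UMIs, summed to 345 CPM without and 109.8 CPM with MSA-2, with C1qa the most abundant. The 12 neutrophil markers summed to 30.3 and 518 CPM there, led by Mmp9 in untreated (21.5 CPM) and S100a9 in MSA-2 (216 CPM). In T cells the tumor markers summed to 553 CPM (8 of 10 with UMIs, Krt7 and Krt8 at 0) and 610.2 CPM (7 of 10, Krt18 at 0 too), led by Gng11. The macrophage markers in T cells summed to 484 CPM (10 of 10) and 127 CPM (7 of 10, with Adgre1, Mrc1 and Trem2 at 0). In macrophages themselves the same panel summed to 18625 and 15425 CPM. In monocytes, where Fos, Jun, Egr1 and Atf3 were higher in MSA-2, macrophage markers summed to 2304 and 1525 CPM (10 of 10 in both, led by C1qb). Neutrophil markers in monocytes summed to 606 CPM (9 of 12, led by Clec4e, with Retnlg, Cxcr2 and Ly6g at 0) and 2889 CPM (12 of 12, led by S100a8). In untreated monocytes Clec4e, Il1r2 and Trem1 were at 259, 175 and 114 CPM, while S100a8 and S100a9 were at 3.82 and 1.09 CPM. Neutrophil markers in T cells summed to 56.8 CPM (10 of 12, led by Il1r2, with Retnlg and Ly6g at 0) and 703 CPM (10 of 12, led by S100a9, with Cxcr2 and Ly6g at 0). They summed to 20.7 and 1147 CPM in NK cells, 19.8 and 989.6 CPM in endothelial cells, 64.6 and 886 CPM in fibroblasts and 166 and 1422 CPM in macrophages. The untreated sums came mostly from genes other than S100a8, S100a9 and Retnlg, and are not read as signs of neutrophil RNA. With MSA-2, neutrophil markers were thus higher and macrophage markers lower in all 7 classes in which the members were compared.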

How the data were processed

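Raw UMI counts per gene and barcode were used as deposited, without normalization. The authors made them with Cell Ranger on mm10 (version 7.0.0 per the labels, beside Seurat 4.3.0, while the matrix header and the methods each name another Cell Ranger version and the methods another Seurat version) from tumors dissociated and sorted with no gate named. Removal of doublets or free RNA before deposit is not stated in the sources used here. Cells needed 500 detected genes or more, and no more than 20% of UMIs from mitochondrial genes. Scrublet then marked doublets library by library (scanpy 1.11.5, expected rate 0.8% per 1000 barcodes, seed 1), and 705 untreated (5.02%) and 570 MSA-2 barcodes (4.08%) were removed. Each cell took the class with the highest marker score (mean over the panel of its genes' log-scaled levels, each between 0 and 1) where the score was at least 0.2, the margin over the next class at least 0.05 and at least 3 markers had a UMI. This left 1094 untreated (8.20%) and 1069 MSA-2 cells (7.98%) unassigned, and 657 and 653 cells lay within 0.02 of the margin limit.

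UMIs were summed per class and library and divided by the class total. Ratios have exact conditional binomial intervals, levels exact Poisson and shares Clopper-Pearson intervals, at 95%. Features with at least 20 UMIs over both libraries were compared. Interval coverage was tested on simulated data. Named genes were all 10 members, the lists of other immediate-early genes, MAPK feedback, upstream kinases and factors, other bZIP partners, heat-shock genes, integrated stress response and interferon-stimulated genes, and the 3 genes most like each of 6 members among those with a mean of at least 50 CPM. For Jun 1 of these 3 is not reported here. Genes singled out within a list were chosen after their values were seen.

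Alternatives were a stricter and no cell filter, doublets kept, a stricter gate, equal weight per cell, edgeR 4.0.16 TMM scaling, scaling without mitochondrial, hemoglobin, S100a8 and S100a9 UMIs, other UMI minimums, no thinning and thinning to 1000 UMIs. Members and lists were chosen with earlier results of these data known. The gating rule, the finer divisions of classes, the heat-shock counts per cell, the shares of cells with 2 members and the motifs were chosen after the data were seen. Python 3.11.15, numpy 2.4.6, scipy 1.17.1, pandas 2.3.3, anndata 0.12.19, matplotlib 3.10.9, R 4.3.3 and GENCODE M21 were used.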

Additional observations from a re-analysis of the deposited data

Results flagged for a closer look

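Some members lay on opposite sides of 0 in different classes under the same contrast of MSA-2 over untreated. The log2 ratio of Fos was 1.25 higher in monocytes (0.28) than in tumor cells (-0.97). That of Jun was 1.06 higher in monocytes (0.48) than in fibroblasts (-0.59). For Egr1 the gap between monocytes (1.19) and tumor cells (-0.70) was 1.89, and for Atf3 the gap between T cells (1.03) and fibroblasts (-0.80) was 1.83. For each gene these were the classes with the highest and the lowest ratio, taken after the values were seen. With 1 library per condition the difference was not tested.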

How the results depend on the processing

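No paired analysis was possible because each condition was 1 library. Of 490 log2 ratios of members recomputed under the alternatives, 425 stayed within their counting interval and 65 moved, and none whose interval excluded 0 changed sign. The class with the highest level was the same for all 10 members under the other cell filters, gate and doublet handling. With equal weight per cell it was the same for 10 in untreated and 7 in MSA-2, where the highest class became monocytes for Atf3, tumor cells for Nr4a1 and T cells for Nr4a3. Of the medians of the members 44 stayed and 5 moved, of the counts of members 117 stayed and 9 moved, and of the list results 249 stayed, 43 moved and 2 reversed, that is, changed sign where the median bounds of their genes' intervals lay on the same side of 0. A count that stayed was not always unchanged, since single members crossed 2-fold under some alternatives, as given with each gene. Of the background shares of all features 111 stayed and 15 moved. Shares of cells with a UMI moved in 250 of 280 cases, as depth sets them. For the values below the cause was not tested unless given.

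With edgeR TMM scaling, the median log2 ratio of the members was -0.99 in tumor cells (main value -0.92), -0.70 in fibroblasts (-0.96) and -0.29 in monocytes (-0.58). Members at least 2-fold lower became 3 in fibroblasts (from 5) and 2 in monocytes (from 4), and members at least 2-fold higher 2 in monocytes (from 1). Fos in tumor cells also passed 2-fold downward. The sign changed for the median log2 ratio of integrated stress response, Tumor cell, from 0.05 to -0.0137, and for the median log2 ratio of heat-shock genes, Ly6c2 monocyte, from -0.26 to 0.0264. List medians with such bounds on both sides of 0 also crossed 0 under this scaling, for MAPK feedback genes in fibroblasts, other immediate-early genes in endothelial cells, and upstream kinases and factors and other bZIP partners in monocytes. In fibroblasts, other immediate-early genes at least 2-fold higher became 3 (from 1), MAPK feedback genes lower 1 (from 3) and upstream kinases and factors lower 1 (from 3). In endothelial cells, MAPK feedback genes lower became 1 (from 2), upstream kinases and factors lower 0 (from 1), other bZIP partners higher 3 (from 1) and integrated stress response genes lower 0 (from 1). In monocytes, other immediate-early genes became 3 lower (from 5) and 10 higher (from 5), upstream kinases and factors 1 lower (from 3) and 4 higher (from 2), and other bZIP partners 3 higher (from 0).

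With equal weight per cell, the members' median was -0.74 in fibroblasts (from -0.96) and -0.79 in macrophages (from -0.94). Members lower became 3 in fibroblasts (from 5) and 2 in endothelial cells (from 1), and members higher 0 in T cells (from 1). Ier2 in T cells and Nr4a3 in NK cells also came within 2-fold. With doublets kept, members lower became 3 in endothelial cells (from 1) and members higher 0 in T cells (from 1). Nr4a3 and Ier2 in macrophages also passed 2-fold downward with doublets kept. Fosb in fibroblasts came within 2-fold with the stricter cell filter and with the stricter gate. With at least 1 UMI in each library as the minimum, members lower became 2 in endothelial cells (from 1), since Nr4a3 then counts.

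With at least 100 UMIs as the minimum, fewer genes were compared, which lowers counts by construction. Other immediate-early genes became 0 higher in fibroblasts (from 1), 2 lower in endothelial cells (from 4) and 1 higher in T cells (from 2). MAPK feedback genes became 1 lower in fibroblasts (from 3), 1 lower in endothelial cells (from 2) and 0 higher in NK cells (from 1). Upstream kinases and factors became 0 lower in endothelial cells (from 1). Other bZIP partners became 0 lower and 0 higher in endothelial cells (from 1 and 1), 1 lower in monocytes (from 2) and 0 higher in NK cells (from 1). Integrated stress response genes became 0 lower and 1 higher in endothelial cells (from 1 and 2) and 1 higher in T cells (from 3). Heat-shock genes became 1 higher in monocytes (from 2) and 0 higher in NK cells (from 1). The median log2 ratio of MAPK feedback, NK cell, went from 0.11 to -0.75, and the medians of other immediate-early genes in endothelial cells and of other bZIP partners in monocytes also crossed 0.

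The mean number of members detected per cell moved with depth by construction. Not thinned, it was 8.91 in untreated and 7.90 in MSA-2 tumor cells, 8.43 and 7.53 in fibroblasts, 7.03 and 6.69 in endothelial cells, 7.30 and 6.14 in macrophages, 6.47 and 5.39 in monocytes, 6.23 and 5.57 in T cells, and 7.26 and 6.43 in NK cells. Thinned to 1000 UMIs, it was 4.22 and 2.99 in tumor cells, 4.95 and 3.96 in fibroblasts, 4.07 and 3.89 in endothelial cells, 4.29 and 3.52 in macrophages, 3.51 and 3.27 in monocytes, 3.37 and 2.23 in T cells, and 3.40 and 2.42 in NK cells. Endothelial cells thus had the lower mean in MSA-2 at 1000 UMIs and the higher at 1500.

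Each condition was 1 pool, so mouse, dissociation and treatment cannot be told apart, and all intervals cover counting error only. Classes rest on marker scores, and their makeup differed between libraries. Their own markers differed too, with the fibroblast panel at 41373 CPM without and 27654 CPM with MSA-2. In NK cells Gzma was at 1267 and 5921 CPM and Xcl1 at 2086 and 564 CPM. In monocytes Vcan was at 82.5 and 778 CPM and Ly6i at 322 and 55.1 CPM. The part of such differences in the members' ratios was not tested. Endothelial, T and NK cells were few in MSA-2, which limits precision there.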
